A study of Mus musculus with 9 samples.

Results

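Polycomb repressive complex 1 (PRC1) was represented by 9 subunit genes, Ring1, Rnf2, Bmi1, Pcgf2, Pcgf6, Cbx2, Cbx6, Cbx7 and Cbx8. They were chosen by name from the 35288 Ensembl identifiers of the deposited table, by a rule that uses no measured value although earlier results of these data were known, and each of the 9 was among the 13697 genes that had enough counts to be tested. T15 is a murine peripheral T-cell lymphoma cell line that lacks Smarcb1, a core subunit of the SWI/SNF (BAF) chromatin remodeling complex. RNA-seq was performed on 3 control libraries, on 3 libraries of cells given SAHA (vorinostat, an inhibitor of histone deacetylases) at 1 µM over 72 h, and on 3 libraries of Smarcb1-RE cells. Smarcb1-RE cells were T15 cells transduced with a lentiviral Smarcb1 expression plasmid (pInd20), selected with G418 and induced with doxycycline (Dox) at 0.5 µg/µl for 72 h. The labels speak of vehicle-treated cells as well as of cells with a control plasmid, and leave unsaid which kind the 3 control libraries were. Consequently, effects of transduction, G418 selection, Dox and Smarcb1 itself cannot be told apart where Smarcb1-RE cells are set against control. The study describes several independent stable clones, and the labels do not tell from how many of them the Smarcb1-RE libraries came. The study also reports that SAHA at the dose used here strongly induced apoptosis in this line, with most cells dead. It reports slower growth after re-expression, with viability and cell cycle unaffected. Whether the SAHA libraries came from dying or surviving cells is not given in the sources used here. What part cell death or slower growth has in the differences was not tested.

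PRC1 is a family of complexes that compacts chromatin and attaches ubiquitin to histone H2A at repressed genes. Each complex holds a RING protein (Ring1 or Rnf2, the catalytic subunit) paired with a PCGF protein, which decides the type of complex, while canonical complexes also carry a CBX protein that reads the methylated histone H3 left by PRC2. Polycomb and SWI/SNF complexes are known to act against each other on chromatin, and loss of Smarcb1 is a textbook setting in which polycomb repression is thought to prevail. In lymphoid cells Bmi1 is best known for silencing the Cdkn2a locus and for sustaining proliferation.

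Every one of the 9 subunit genes was expressed in every library, and none changed by 2-fold or more in any of the 3 comparisons. After SAHA, Rnf2, Cbx7 and Ring1 rose, whereas Bmi1, Pcgf6 and Cbx6 fell. In Smarcb1-RE cells, Cbx7 and Ring1 rose, whereas Pcgf2, Cbx2, Bmi1, Pcgf6 and Cbx6 fell. The largest fold difference from control was 1.44 for Rnf2 after SAHA and 1.58 for Cbx7 after Smarcb1 re-expression. The plot of each subunit by library shows these levels in CPM (the count of a gene per 1e+06 counts of its library, after TMM normalization).

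**Figure D1:**
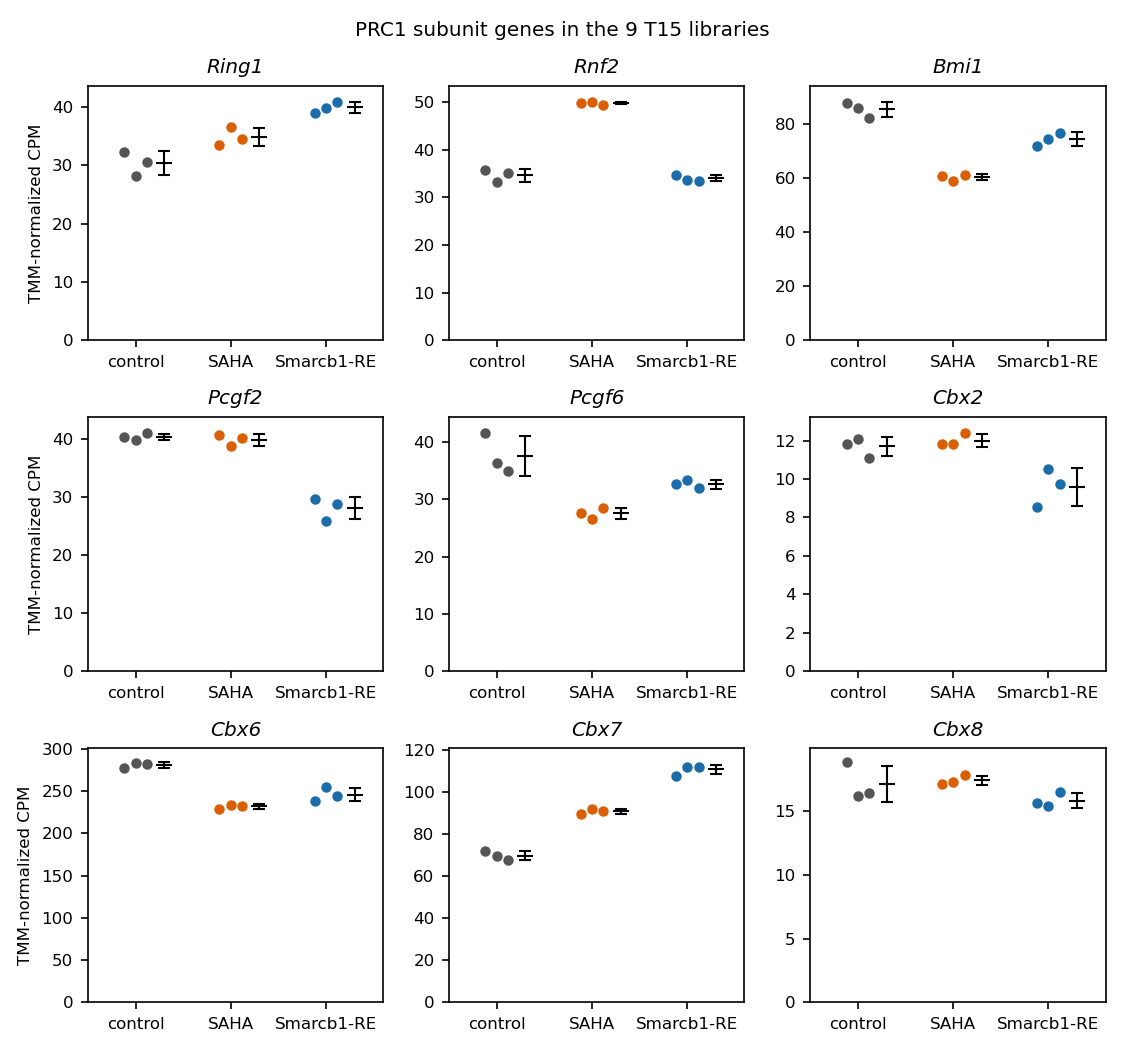
TMM-normalized CPM (linear y axes from 0) of the 9 PRC1 subunit genes in 3 control, 3 SAHA and 3 Smarcb1-RE libraries, where each point is a library and the bar beside the points is the mean ± SD. Rnf2 stood apart in SAHA (49.7 CPM on average), Pcgf2 in Smarcb1-RE (28.1 CPM), and Cbx7 stepped up from 69.9 CPM in control to 90.9 CPM in SAHA and 111 CPM in Smarcb1-RE.

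Library totals were between 24564919 and 24941494 counts in control, between 23403494 and 24189992 in SAHA and between 20900477 and 21911177 in Smarcb1-RE. A level of 3 counts, taken as the floor of detection, corresponded to 0.123 to 0.133 CPM, and the lowest count of any subunit gene was 200, for Cbx2 in a Smarcb1-RE library. Smarcb1 was at 2 to 8 counts per library in control, at 3 to 13 in SAHA and at 142 to 151 in Smarcb1-RE, as the labels have it. Replicates differed by more than sampling noise in each group, and the chi-square per gene was largest in both pairs that included control replicate 1 (12.5 and 14.1, against 2.07 to 4.55 in the other pairs). The summed level of 8 T-cell markers was 1610 to 1660 CPM in control, 1790 to 1830 CPM in SAHA and 1740 to 1760 CPM in Smarcb1-RE, but Cd2 and Cd5 were at or under the floor in each group, and Thy1 was so in control and Smarcb1-RE. Of 4 fibroblast markers, Dcn was at or under the floor in each group and Col1a2 was so in SAHA and Smarcb1-RE, while their sum was 6.29 to 8.84 CPM in control, 6.76 to 7.06 CPM in SAHA and 66.4 to 68.6 CPM in Smarcb1-RE, in which Pdgfra had 1487 to 1594 counts per Smarcb1-RE library and 133 to 214 in the other libraries. The sum of 5 B-cell markers was 0.936 to 1.14 CPM in control, 1.24 to 1.86 CPM in SAHA and 7.25 to 7.97 CPM in Smarcb1-RE, with Cd79b at or under the floor in each group. The sum of 6 myeloid markers was 2.03 to 2.55, 5.72 to 7.41 and 1.85 to 1.92 CPM in the same order. Csf1r, Adgre1 and Cd14 were at or under the floor in each group, and Itgam and Lyz2 were so in SAHA and Smarcb1-RE. The higher sum in SAHA came from Cd68, with 38, 35 and 48 counts in control and 132, 163 and 170 in SAHA. Itgam (12, 8 and 11 counts in control, 0, 1 and 1 in SAHA) and Lyz2 went the other way. For 3 erythroid markers the sum did not exceed 0.663 CPM, with Hbb-bs at or under the floor. What part these markers have in the values of the subunit genes was not tested. In bulk RNA, fewer cells of a type and less RNA per cell cannot be told apart.

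To show which DNA lies in front of the subunit genes, the 250 bases before the transcription start were read from RefSeq (GRCm38.p6), where 8 of the 9 genes matched by symbol. These windows held 56 to 73.6% G and C and 5 to 30 CpG dinucleotides, against medians of 52.4% and 6 over 32851 mouse promoters of the same length. The windows of the RING pair and of Bmi1 and Pcgf2 are printed because Rnf2 and Pcgf2 are the genes that passed against control in a single one of the treatments with the largest changes, and Ring1 and Bmi1 are their paralogues. Each is given 5′ to 3′ on the strand of its gene, and none of these windows overlaps an exon in GENCODE M21, although that of Pcgf2 lies inside the gene as GENCODE M21 draws it, in an intron of a longer transcript. Capitals mark the E-box CACGTG and the E2F core GGCGGGA, which were searched on both strands and do not overlap each other. Ring1 lies at chr17:34024681-34024930 (minus strand), Rnf2 at chr1:151500992-151501241 (minus strand), Bmi1 at chr2:18676768-18677017 (plus strand) and Pcgf2 at chr11:97699649-97699898 (minus strand).
Ring1: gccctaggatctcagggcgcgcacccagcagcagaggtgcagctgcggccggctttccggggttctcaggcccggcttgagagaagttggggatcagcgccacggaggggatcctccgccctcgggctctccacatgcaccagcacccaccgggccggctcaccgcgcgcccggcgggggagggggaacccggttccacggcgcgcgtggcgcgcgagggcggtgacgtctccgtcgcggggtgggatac
Rnf2: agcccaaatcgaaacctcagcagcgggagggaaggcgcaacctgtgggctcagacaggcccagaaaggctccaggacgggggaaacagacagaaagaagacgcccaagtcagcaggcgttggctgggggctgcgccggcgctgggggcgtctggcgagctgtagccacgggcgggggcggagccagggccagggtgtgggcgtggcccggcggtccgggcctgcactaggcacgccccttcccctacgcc
Bmi1: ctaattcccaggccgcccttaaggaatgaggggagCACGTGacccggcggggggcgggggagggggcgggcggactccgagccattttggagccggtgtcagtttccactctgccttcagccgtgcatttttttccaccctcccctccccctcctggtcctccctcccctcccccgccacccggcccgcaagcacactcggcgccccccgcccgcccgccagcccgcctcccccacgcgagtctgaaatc
Pcgf2: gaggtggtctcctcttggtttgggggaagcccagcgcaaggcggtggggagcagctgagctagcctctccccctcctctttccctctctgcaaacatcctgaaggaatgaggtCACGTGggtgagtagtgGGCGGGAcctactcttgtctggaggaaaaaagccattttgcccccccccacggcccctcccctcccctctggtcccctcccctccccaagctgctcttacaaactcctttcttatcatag
The window of Bmi1 held an E-box that begins 215 bases before the start, and that of Pcgf2 held an E-box at 137 and an E2F core at 120 bases before it. The windows of Cbx6 and Cbx8 also held both motifs, whereas those of Ring1, Rnf2, Pcgf6 and Cbx7 held neither. In GENCODE M21, exons covered all 250 bases of the Cbx6 window, which lies inside that gene. They covered 122 bases of the Cbx7 window and 56 of the Cbx8 window. Among all promoters, the E-box was found in 6.02% and the E2F core in 9.75%. These matches describe the letters only, and binding was not measured.

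Both catalytic subunits were measured first. Ring1 (ENSMUSG00000024325, chr17:34020792-34024680, minus strand, GRCm38 as are all positions) encodes a RING-type E3 ligase for histone H2A. Its level was 32.2, 28.2 and 30.6 CPM in control, 33.4, 36.5 and 34.4 CPM in SAHA and 39.0, 39.8 and 40.8 CPM in Smarcb1-RE. The 3 groups formed ascending steps that did not overlap. Against control, the log2 fold change of Ring1 was 0.19 in SAHA (standard error 0.06, adjusted p = 0.00911) and 0.39 in Smarcb1-RE (standard error 0.06, adjusted p = 3.27e-05). Adjusted p-values of single genes come from the quasi-likelihood test of edgeR with Benjamini-Hochberg adjustment throughout. Between the treatments, Ring1 was higher in Smarcb1-RE by 0.20 on the log2 scale (standard error 0.06, adjusted p = 0.00627).

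Rnf2 (ENSMUSG00000026484, chr1:151458004-151500955, minus strand), also known as Ring1b, encodes the other E3 ligase, which carries most H2A ubiquitination in many cell types. Rnf2 was measured at 35.8, 33.1 and 35.0 CPM in control, at 49.7, 49.9 and 49.4 CPM in SAHA and at 34.6, 33.7 and 33.5 CPM in Smarcb1-RE. Each SAHA library lay above every other library, whereas the control and Smarcb1-RE libraries overlapped. Rnf2 rose by 0.52 on the log2 scale in SAHA (standard error 0.04, adjusted p = 4.47e-07). In Smarcb1-RE the change was -0.03, with a 95% interval from -0.14 to 0.08 (adjusted p = 0.596), and this sign turned to 0.13 (adjusted p = 0.0164) when only library totals were used for scaling. The direct comparison of Smarcb1-RE with SAHA gave -0.55 (standard error 0.04, adjusted p = 1.5e-07). The 3′ end of Rnf2 overlaps Trmt1l on the opposite strand, which had 737 to 939 counts per library. The library kit was directional, but whether the counting used strand is not given in the sources used here, so reads of the overlap are uncertain.

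In terms of level per length (CPM per kb of merged exons), Ring1 made up 52.7% ± 0.67 (SD, n = 3) of the sum of both RING genes in control, 47.1% ± 1.06 in SAHA and 59.9% ± 0.961 in Smarcb1-RE. The share of Ring1 was thus 5.65 percentage points lower in SAHA and 7.16 percentage points higher in Smarcb1-RE than in control, without overlap between libraries. A two-sided exact permutation test gave p = 0.1 for each, which is the smallest p that 3 against 3 libraries allow. The sum itself was 17.8 ± 0.955 CPM per kb in control, 22.8 ± 0.514 in SAHA and 20.5 ± 0.171 in Smarcb1-RE. Both treated groups lay above control in this sum, without overlap.

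Next, the PCGF subunits were compared. Bmi1 (ENSMUSG00000026739, chr2:18677018-18686629, plus strand), also named Pcgf4, belongs to canonical PRC1 and is a well-known oncogene of lymphoid cells. Bmi1 reached 87.8, 86.2 and 82.5 CPM in control, 60.9, 59.1 and 61.2 CPM in SAHA and 71.8, 74.7 and 76.9 CPM in Smarcb1-RE. Control libraries were highest, SAHA libraries were lowest, and no groups overlapped. Its log2 fold change was -0.50 in SAHA (standard error 0.04, adjusted p = 5.59e-07) and -0.20 in Smarcb1-RE (standard error 0.04, adjusted p = 0.000873), the latter changing to -0.04 (adjusted p = 0.388) with library totals only. Bmi1 was higher in Smarcb1-RE than in SAHA by 0.30 on the log2 scale (standard error 0.04, adjusted p = 3.67e-05).

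Pcgf2 (ENSMUSG00000018537, chr11:97688823-97700497, minus strand), also named Mel18, is the paralogue that takes the place of Bmi1 in canonical PRC1. Its libraries held 40.3, 39.7 and 40.9 CPM in control, 40.7, 38.7 and 40.1 CPM in SAHA and 29.7, 25.9 and 28.7 CPM in Smarcb1-RE. All Smarcb1-RE libraries lay below the others, and control and SAHA overlapped. Pcgf2 changed by -0.52 on the log2 scale in Smarcb1-RE against control (standard error 0.05, adjusted p = 1.4e-06) and -0.50 against SAHA (standard error 0.05, adjusted p = 2.26e-06). For SAHA against control it was -0.02 with a 95% interval from -0.15 to 0.11 (adjusted p = 0.772), so that a change by SAHA within these bounds was not detectable.

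Pcgf6 (ENSMUSG00000025050, chr19:47033617-47050906, minus strand) belongs to a non-canonical PRC1 that also holds L3mbtl2, Mga and E2f6 and represses germline genes. Pcgf6 was at 41.5, 36.3 and 34.9 CPM in control, at 27.7, 26.6 and 28.5 CPM in SAHA and at 32.6, 33.3 and 31.9 CPM in Smarcb1-RE. As with Bmi1, control was highest and SAHA lowest, without overlap, although control replicate 1 stood above the other 2 control libraries. Pcgf6 fell by 0.44 on the log2 scale in SAHA (standard error 0.06, adjusted p = 5.07e-05). In Smarcb1-RE it changed by -0.20 (standard error 0.06, adjusted p = 0.0101), ranging from -0.27 to -0.13 when single libraries were left out, and it was -0.05 (adjusted p = 0.499) with library totals only. Smarcb1-RE exceeded SAHA by 0.24 on the log2 scale (standard error 0.07, adjusted p = 0.00498).

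Among the 3 PCGF genes, the share of Bmi1 in the summed CPM per kb was 53.2% ± 0.661 (SD, n = 3) in control, 47.5% ± 0.194 in SAHA and 56.5% ± 1.42 in Smarcb1-RE. Pcgf2 supplied 28.3% ± 1.11, 35.3% ± 0.303 and 24% ± 1.55 in the same order. The Pcgf2 share was therefore 7 percentage points higher in SAHA and 4.31 percentage points lower in Smarcb1-RE than in control (two-sided exact permutation test, p = 0.1 for each). With Pcgf1, Pcgf3 and Pcgf5 in the sum as well, these differences of Pcgf2 were 1.02 and -1.43 percentage points. The sum of the 3 genes was 40.4 ± 1.26 CPM per kb in control, 32 ± 0.729 in SAHA and 33.2 ± 0.565 in Smarcb1-RE, so both treated groups lay below control without overlap. The stacked shares by library display how the balance moved within each paralogue group.

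**Figure D2:**
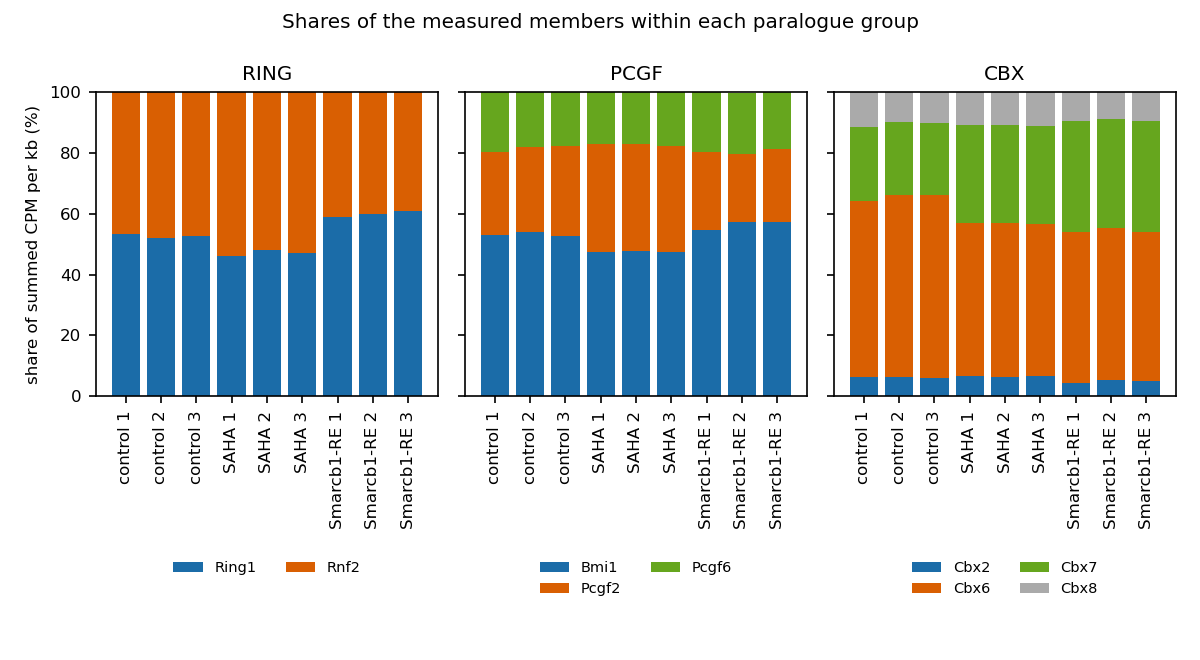
Share of each measured gene in the summed CPM per kb of merged exons of its paralogue group (y axis, percent, linear from 0 to 100), with a stacked bar for each of the 9 libraries. The RING bars shift toward Rnf2 in SAHA (52.9% on average) and toward Ring1 in Smarcb1-RE (59.9%), and the Cbx7 share grows from 24.1% in control to 32.3% and 36.4%.

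Of the CBX subunits, Cbx7 (ENSMUSG00000053411, chr15:79915807-79971119, minus strand) encodes a reader of methylated histone H3 that represses Cdkn2a and is abundant in stem and lymphoid cells. Cbx7 was measured at 72.0, 69.9 and 67.7 CPM in control, at 89.8, 91.9 and 91.0 CPM in SAHA and at 108, 112 and 112 CPM in Smarcb1-RE. The groups were separated from each other by far more than the spread of their libraries. Cbx7 rose by a log2 fold change of 0.38 in SAHA (standard error 0.04, adjusted p = 2.76e-06) and of 0.66 in Smarcb1-RE (standard error 0.04, adjusted p = 7.38e-09). The difference between both treatments was 0.28 (standard error 0.04, adjusted p = 2.1e-05). The end of Cbx7 overlaps Apobec3 on the opposite strand, an abundant gene with 5484 to 7794 counts per library, and the strand caveat given for Rnf2 applies here as well.

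Cbx6 (ENSMUSG00000089715, chr15:79823896-79834688, minus strand) encodes a less studied CBX reader and lies on the same chromosome 15 as Cbx7. Its level was 278, 284 and 282 CPM in control, 229, 234 and 232 CPM in SAHA and 239, 255 and 244 CPM in Smarcb1-RE. Control was highest, and the SAHA and Smarcb1-RE libraries were close to each other. Cbx6 changed by -0.28 on the log2 scale in SAHA (standard error 0.04, adjusted p = 2.38e-05) and -0.19 in Smarcb1-RE (standard error 0.04, adjusted p = 0.000366), the latter shrinking to -0.03 (adjusted p = 0.434) with library totals only. Smarcb1-RE against SAHA gave 0.09 (standard error 0.04, adjusted p = 0.0518), which did not pass the threshold. It passed with library totals only (0.24, adjusted p = 9.21e-05), without control replicate 1 (0.08, adjusted p = 0.0245), in a fit to both groups alone and under a stricter count filter. Npcd shares the strand and much of the locus of Cbx6, and its 0 to 50 counts per library mean that a division of reads between both genes is uncertain.

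Cbx2 (ENSMUSG00000025577, chr11:119022962-119031270, plus strand) encodes the CBX subunit best known for compacting chromatin. Cbx2 had 11.8, 12.1 and 11.1 CPM in control, 11.8, 11.8 and 12.4 CPM in SAHA and 8.53, 10.5 and 9.74 CPM in Smarcb1-RE. The Smarcb1-RE libraries were the lowest, without overlap. Cbx2 changed by -0.29 on the log2 scale in Smarcb1-RE against control (standard error 0.09, adjusted p = 0.00816), which became -0.13 (adjusted p = 0.191) with library totals only, and -0.32 against SAHA (standard error 0.09, adjusted p = 0.00404), which became -0.16 (adjusted p = 0.0972). In SAHA against control the value was 0.04, with a 95% interval from -0.17 to 0.24 (adjusted p = 0.705).

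Cbx8 (ENSMUSG00000025578, chr11:119036305-119040969, minus strand) lies 5034 bases from Cbx2 and encodes a further reader of methylated histone H3. Its level was 18.8, 16.2 and 16.4 CPM in control, 17.1, 17.3 and 17.8 CPM in SAHA and 15.6, 15.4 and 16.5 CPM in Smarcb1-RE. Control overlapped with both treated groups. Its log2 fold change was 0.03 in SAHA (95% interval from -0.14 to 0.20, adjusted p = 0.76) and -0.11 in Smarcb1-RE (95% interval from -0.28 to 0.06, adjusted p = 0.163). Smarcb1-RE against SAHA gave -0.14 (95% interval from -0.31 to 0.03, adjusted p = 0.0938) although these libraries did not overlap, and without control replicate 1 the adjusted p was 0.0372. With library totals only, both Smarcb1-RE values of Cbx8 turned positive, to 0.05 against control and 0.02 against SAHA.

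Within the sum of Cbx2, Cbx6, Cbx7 and Cbx8 per length, Cbx6 supplied 59.3% ± 1.21 (SD, n = 3) in control, 50.3% ± 0.2 in SAHA and 49.5% ± 0.536 in Smarcb1-RE. The share of Cbx7 was 24.1% ± 0.469, 32.3% ± 0.145 and 36.4% ± 0.338 in the same order, which is 8.17 percentage points above control in SAHA and 12.3 in Smarcb1-RE. Each of these differences had no overlap between libraries and the smallest p that the two-sided exact permutation test allows, p = 0.1. The sum of the 4 genes was 44.7 ± 0.513 CPM per kb in control, 43.4 ± 0.471 in SAHA and 46.8 ± 1.24 in Smarcb1-RE.

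When the 9 genes were counted together, 6 passed the test for SAHA against control, where 66.9% of all tested genes passed. Of them 3 were higher (32.6% of all tested genes) and 3 lower (34.3%). For Smarcb1-RE against control 7 of 9 passed (77.8% of all tested genes), 2 as higher (39.2%) and 5 as lower (38.6%). For Smarcb1-RE against SAHA 7 of 9 passed (74.6% of all tested genes), 4 as higher (37.7%) and 3 as lower (36.8%). The share of subunit genes that changed was thus near that of all genes in each comparison. Libraries did not overlap for 6, 7 and 9 of the 9 genes in the same order, against 68.7%, 79.5% and 80% of all tested genes. None of the 9 genes passed with a log2 fold change of at least 1 in either direction, which 12.2%, 23.6% and 19.8% of all tested genes did. The median log2 fold change of the 9 genes was 0.03, -0.19 and 0.09 (0, 0.01 and 0.02 over all tested genes), and the median absolute log2 fold change was 0.28, 0.2 and 0.28 (0.37, 0.53 and 0.48 over all tested genes). SAHA and Smarcb1-RE were compared with the same 3 control libraries, so both sets of differences share their error. When libraries were scaled by their totals only, the median of all tested genes moved on the log2 scale from 0.01 to 0.17 for Smarcb1-RE against control and from 0.02 to 0.18 against SAHA, and the share of calls that were higher rose from 50.4% to 61% and from 50.6% to 62.1%. Under that scaling 4 of the 9 genes passed for Smarcb1-RE against control (77.5% of all tested genes), and 3 of them were among the 7. Ring1, Cbx7 and Pcgf2 kept their direction and passed, and Rnf2 passed as higher.

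**Figure D3:**
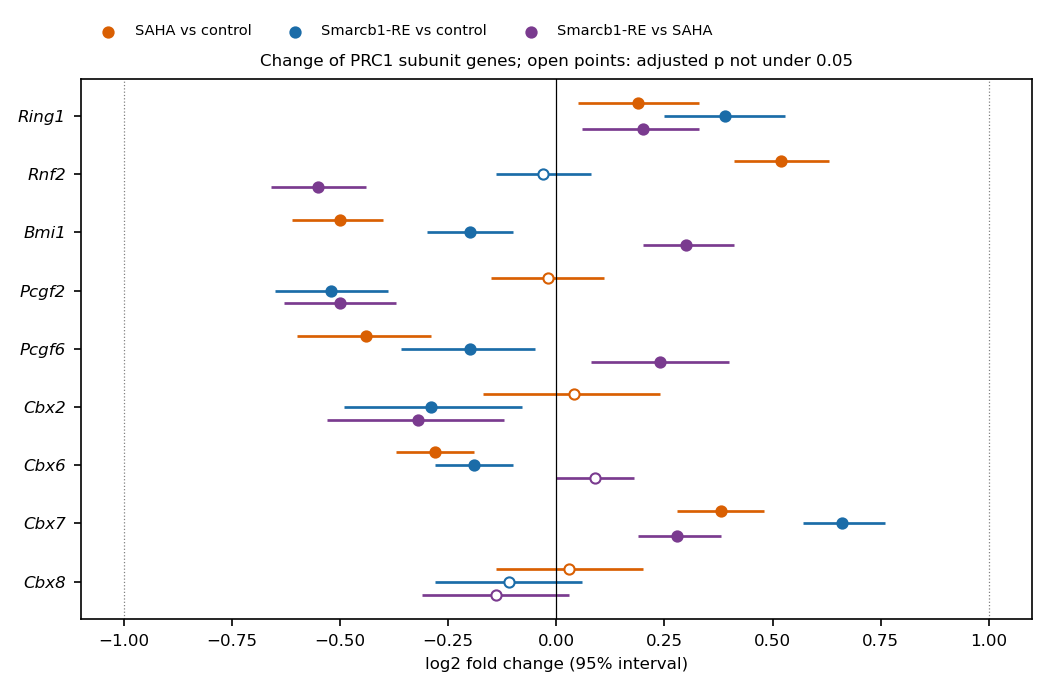
Log2 fold change (x axis) of each PRC1 subunit gene with its 95% interval in the 3 comparisons, where filled points had an adjusted p under 0.05, open points did not, and dotted lines mark 2-fold. Every point lies inside the 2-fold lines, Cbx7 in Smarcb1-RE reaches 0.66, and with library totals only the Smarcb1-RE values of Rnf2 against control and of Cbx8 in both comparisons change sign.

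The order of the levels was compared per length. In control it ran from Cbx6 (26.5 CPM per kb) and Bmi1 (21.5) over Pcgf2 (11.4), Cbx7 (10.8), Ring1 (9.35), Rnf2 (8.39) and Pcgf6 (7.47) to Cbx8 (4.66) and Cbx2 (2.74). Rnf2 and Pcgf6 were the only neighbours in this order whose libraries overlapped. In SAHA, Cbx7 (14 CPM per kb) stood ahead of Pcgf2 (11.3), Rnf2 (12) stood ahead of both Pcgf2 and Ring1 (10.7), and Pcgf2 and Ring1 overlapped. In Smarcb1-RE, Cbx7 (17.1 CPM per kb) and Ring1 (12.3) were followed by Rnf2 (8.22) and Pcgf2 (7.97), which overlapped. Cbx6 and Bmi1 led and Cbx8 and Cbx2 closed the order in each group. If the longest transcript was used in place of merged exons, Pcgf6 moved up to place 4 in control (13.3 CPM per kb) and overlapped with Ring1, so that the middle of the order depends on the length chosen.

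The remaining PRC1 genes were examined as a list of 22, of which 21 could be tested and Auts2 could not. They include further PCGF paralogues, the Polyhomeotic and Scm proteins of canonical PRC1, and the partners of non-canonical PRC1. For SAHA against control 17 passed (9 higher, 8 lower), for Smarcb1-RE against control 17 (9 higher, 8 lower) and for Smarcb1-RE against SAHA 17 (8 higher, 9 lower), where 66.9%, 77.8% and 74.6% of all tested genes passed. Their median log2 fold change was 0.03, 0.06 and -0.11, against 0, 0.01 and 0.02 over all tested genes.

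Kdm2b, which brings non-canonical PRC1 to CpG islands, was at 55.5, 61.4 and 60.9 CPM in control, at 112, 113 and 113 CPM in SAHA and at 113, 105 and 111 CPM in Smarcb1-RE. Both treated groups were far above control and overlapped with each other. Kdm2b rose by 0.93 on the log2 scale in SAHA (standard error 0.05, adjusted p = 8.53e-09) and by 0.89 in Smarcb1-RE (standard error 0.05, adjusted p = 3.25e-09). Bcorl1, a corepressor of the Kdm2b complex, went in opposite directions. It was at 21.4, 24.7 and 25 CPM in control, 51.5, 56.2 and 60.5 CPM in SAHA and 16.9, 17.1 and 16.1 CPM in Smarcb1-RE. Its log2 fold change was 1.24 in SAHA (standard error 0.07, adjusted p = 1.67e-08), -0.51 in Smarcb1-RE (standard error 0.08, adjusted p = 6.38e-05) and -1.75 between the treatments (adjusted p = 4.46e-10). Fbrs, a partner of the complexes that hold Pcgf3 or Pcgf5, rose by 0.84 in SAHA (standard error 0.05, adjusted p = 2.32e-08).

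Partners of Pcgf6 were in the list as well. E2f6, its DNA-binding partner, was at 21.3, 21 and 19.7 CPM in control and at 12, 10.5 and 11.5 CPM in SAHA, with a log2 fold change of -0.86 (standard error 0.07, adjusted p = 2.12e-07). L3mbtl2, a chromatin-binding subunit of the same complex, was at 146, 149 and 145 CPM in control and at 67.0, 67.1 and 66.1 CPM in Smarcb1-RE, with a log2 fold change of -1.14 (standard error 0.04, adjusted p = 3.77e-11). This was the largest decrease among the 21 genes in that comparison. L3mbtl2 also fell in SAHA, with a log2 fold change of -0.34 (adjusted p = 2.23e-06). Mga, a large DNA-binding protein of the complex, had log2 fold changes of -0.15 in SAHA (adjusted p = 0.0279) and 0.15 in Smarcb1-RE (adjusted p = 0.0253).

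Of the other PCGF paralogues, Pcgf3 (-0.94, standard error 0.06, adjusted p = 2.71e-08) and Pcgf5 (-0.60, standard error 0.04, adjusted p = 8.01e-09), which both build non-canonical complexes, fell in Smarcb1-RE. Pcgf1, the PCGF partner of Kdm2b, had a log2 fold change of -0.39 in SAHA (standard error 0.12, adjusted p = 0.0115), which missed the threshold without SAHA replicate 3 (-0.30, adjusted p = 0.0546), and of 0.47 in Smarcb1-RE (standard error 0.11, adjusted p = 0.00214). Among the Polyhomeotic and Scm genes, Scmh1 (1.20, standard error 0.09, adjusted p = 5.35e-08) and Phc3 (0.83, standard error 0.07, adjusted p = 1.87e-07) rose in Smarcb1-RE, and Phc1 fell by 0.39 in SAHA (standard error 0.06, adjusted p = 5.89e-05).

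**Figure D4:**
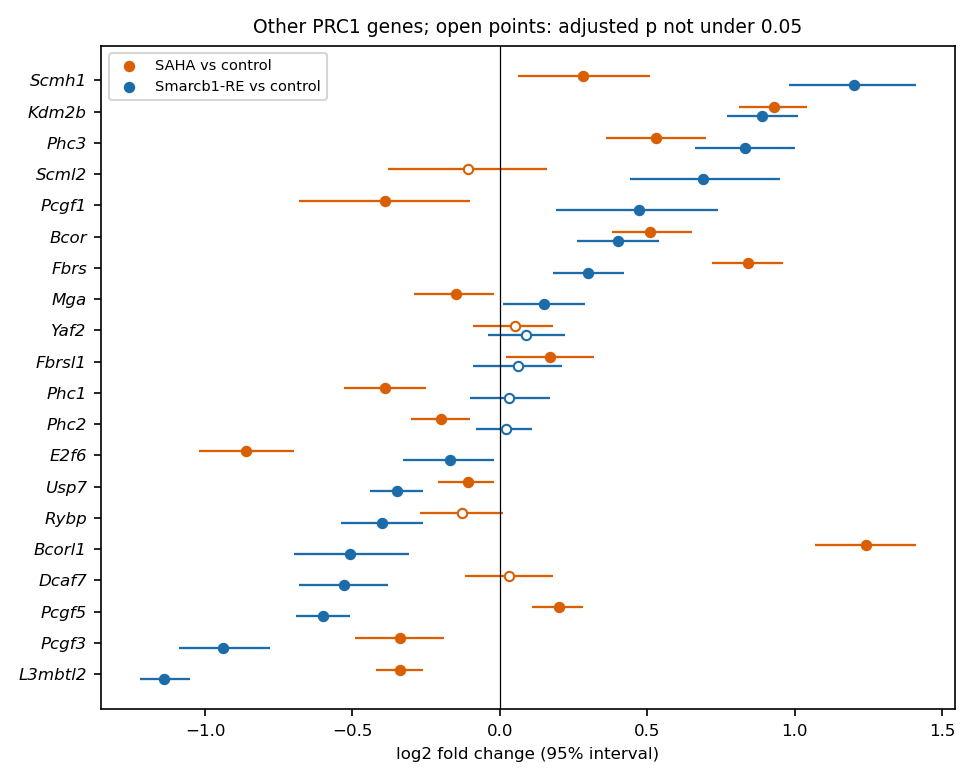
Log2 fold change against control (x axis, with 95% interval) of 20 other PRC1 genes that were tested, in SAHA (orange) and Smarcb1-RE (blue), where open points did not have an adjusted p under 0.05. Kdm2b lies near 0.9 in both, Bcorl1 at 1.24 in SAHA but -0.51 in Smarcb1-RE, and L3mbtl2 is lowest in Smarcb1-RE at -1.14.

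The chromosomal neighbours of the subunit genes were also measured. On both sides of Pcgf2, Cisd3 (201 bases away) and Psmb3 (2901 bases away) fell in Smarcb1-RE, with log2 fold changes of -1.23 (adjusted p = 5.89e-08) and -1.31 (adjusted p = 9.25e-11), while both rose in SAHA (0.52 with adjusted p = 0.000123, and 0.16 with adjusted p = 0.00513). Next to Ring1, H2-Ke6 (1352 bases away) rose by 1.13 in SAHA (adjusted p = 1.19e-06) and by 1.18 in Smarcb1-RE (adjusted p = 3.91e-07), and H2-K1, a class I histocompatibility gene on the other side, rose by 0.52 (adjusted p = 9.5e-07) and 0.70 (adjusted p = 2.94e-08). Commd3, which lies 786 bases before Bmi1 on the same strand, had log2 fold changes of 0.04 (adjusted p = 0.683) and -0.12 (adjusted p = 0.194), neither of which passed. Spag6, 7402 bases beyond Bmi1, had 1 to 3 counts per library in control, 1 to 5 in SAHA and 17 to 25 in Smarcb1-RE (adjusted p = 3.22e-05 against control), where Bmi1 was lower. Ina, 8289 bases from Pcgf6, changed by -1.11 on the log2 scale in SAHA (adjusted p = 0.00342) and by 1.60 in Smarcb1-RE (adjusted p = 2.88e-05), so that it went with Pcgf6 in SAHA and the other way in Smarcb1-RE. Fam129a, 70230 bases from Rnf2, rose by 0.27 in SAHA (adjusted p = 0.00118) and by 0.87 in Smarcb1-RE (adjusted p = 2.31e-08), where Rnf2 did not pass.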

How the data were processed

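RNA-seq of the T15 line comprised 9 libraries, 3 per group, made with a directional kit from total RNA. Estimated counts were deposited by the authors in a table, made by quantification of the reads of each library per gene with neither normalization nor pooling, in which 52.4% of the values above 0 were not whole. The submitters' processing notes name Salmon 0.14.1, DESeq2 1.22.2, FastQC 0.11.8, MultiQC 1.7 and GRCm38, whereas the annotation release is not given in the sources used here. Counts were rounded. Gene names, positions and exon lengths came from GENCODE M21 (GRCm38), which held 99.3% of the identifiers and 99.9% of the counts. The floor of 3 counts covers counting error only.

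Groups were compared with edgeR 4.0.16 in R 4.3.3 (TMM factors, filterByExpr at a minimum count of 10, quasi-likelihood F test in a single fit to the 9 libraries, Benjamini-Hochberg adjustment over 13697 genes, adjusted p under 0.05). The fit was also run on simulated counts in which all but a small set of genes were unchanged. Those counts cannot show how the fit behaves where most genes pass, as here. Standard errors were derived from the F statistic, as the size of the log2 fold change over its square root, and 95% intervals use a t quantile with 6 residual degrees of freedom, and so cover the spread between libraries. The common biological coefficient of variation was 5.24%. The study calls the libraries biological replicates, and the p-values measure the spread between them. Shares were tested by two-sided exact permutation.

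The subunit genes and the lists were chosen with earlier results of these data known. Text names are the 9 members, Smarcb1, up to 3 genes per list, direction and comparison with control with the largest change among those that passed with a mean of at least 1 on the log2 CPM scale, and the nearest tested protein-coding neighbours. Mga, and Bcorl1, Pcgf1, Cdkn2b and E2f6 in Smarcb1-RE, were added after their values were seen, as was L3mbtl2 in SAHA. The rule also did not select Cdkn2a in SAHA. Some marker and list genes are not reported here. Genes of like pattern were to be named only for members with a log2 fold change of at least 1, and 0 of 9 had one. Alternatives were DESeq2 1.42.0, RLE factors, library totals only, no filter, at least 10 counts in every library, a replicate block, separate fits, leaving out each library, an adjusted p under 0.01, a minimum absolute log2 fold change of 1, all PCGF paralogues in the denominator, and the longest transcript as length.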

Additional observations from a re-analysis of the deposited data

How the results depend on the processing

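Each group uses the replicate numbers 1 to 3, but libraries with the same number did not deviate together (mean correlation of deviations 0.0018, from -0.0586 to 0.0382, against -0.00092 for different numbers), so they share only a number. With the replicate number as a block, 6, 7 and 7 subunit genes passed for SAHA against control, Smarcb1-RE against control and Smarcb1-RE against SAHA, and these were the same genes, as they were with DESeq2. When single libraries were left out, 6, 7 and 7 to 9 subunit genes passed, and 8379 to 9443, 10216 to 10862 and 9703 to 10758 of all tested genes. For Cbx8 in SAHA, leaving out single libraries gave -0.01 (without control replicate 2 or 3) to 0.09. Requiring a log2 fold change of at least 1 left 0 subunit genes in each comparison and 1671, 3237 and 2706 of all genes. It also left 1, 2 and 1 of the other PRC1 genes, 1, 0 and 1 PRC2 genes, 0, 0 and 1 H2A deubiquitination genes, and 6 and 5 polycomb target genes in the last 2 comparisons. With library totals only, 4 subunit genes passed for Smarcb1-RE against control, and Rnf2 and Cbx8 turned to 0.13 and 0.05 there. For Smarcb1-RE against SAHA, the same scaling turned Cbx8 to 0.02. In that comparison 7 of 11 PRC2 genes passed with library totals only (75.7% of all tested genes), against 11 of 11 with TMM factors (74.6%). The neighbour Apobec3 turned to 0.02 in Smarcb1-RE against control with library totals only. Those values follow the shift of all genes by the scaling. With at least 10 counts in every library, Pcgf2 in SAHA turned to 0.02, Rnf2 in Smarcb1-RE turned to 0.03, and 6 polycomb target genes in place of 10 passed in SAHA. Of those missing, Pax6, Lhx5 and Irx5 had libraries with fewer than 10 counts and were no longer tested. Pax3 was tested but did not pass (-0.16, adjusted p = 0.0738). With Pcgf1, Pcgf3 and Pcgf5 in the PCGF denominator no share difference changed sign, and a wider denominator was not run for the CBX genes. The cause of the other reversals was not tested. Cbx2 and Cbx8 were the 2 members with the fewest counts, and whether depth limited their results was not tested.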

Other observations

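PRC2, which places the histone H3 methylation that CBX proteins read, was represented by 11 genes, all tested. For SAHA against control 6 passed (2 higher, 4 lower), for Smarcb1-RE against control 9 (4 higher, 5 lower), where 66.9% and 77.8% of all tested genes passed. Their median log2 fold change was -0.07 and -0.06, against 0 and 0.01 over all tested genes. Jarid2, a DNA-binding cofactor of PRC2, rose by a log2 fold change of 1.54 in SAHA (adjusted p = 6.9e-09) and 0.98 in Smarcb1-RE (adjusted p = 1.37e-07). Ezh2, the methyltransferase, rose by 0.57 in SAHA (adjusted p = 7.64e-08), and Rbbp7, a histone chaperone of several complexes, had a log2 fold change of -0.98 in Smarcb1-RE (adjusted p = 1.52e-10).

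Genes that remove ubiquitin from histone H2A, and so undo the mark set by PRC1, were listed as 9, of which 8 were tested. In SAHA 3 passed (2 higher, 1 lower) and in Smarcb1-RE 7 (5 higher, 2 lower), where 66.9% and 77.8% of all tested genes passed. Their median log2 fold changes were -0.02 and 0.30, against 0 and 0.01 over all tested genes. Usp21, a higher gene in SAHA, was close to the threshold (log2 fold change 0.14, adjusted p = 0.0482). It did not pass with DESeq2, nor in 7 of the 9 fits that left out a library. Mysm1, an H2A deubiquitinase, had a log2 fold change of 0.24 in SAHA (adjusted p = 0.002) and 0.99 in Smarcb1-RE (adjusted p = 3.94e-09), and Mbd6, a partner of the Bap1 deubiquitinase, had -0.21 (adjusted p = 0.00797) and 0.88 (adjusted p = 1.56e-08). Bap1 itself had -0.51 in Smarcb1-RE (adjusted p = 1.19e-07).

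Of 26 genes known as polycomb targets in other cells, 12 had too few counts and 14 were tested. In SAHA 8 rose and 2 fell, and in Smarcb1-RE 9 rose and 1 fell, where 66.9% and 77.8% of all tested genes passed. Since a gene could enter the test through the group in which it is high, these counts say nothing of the 26 together. Gata4, a transcription factor of heart and endoderm, was at 2.76, 3.93 and 2.80 CPM in control, at 6.67, 6.05 and 6.72 CPM in SAHA and at 11.5, 10.3 and 11.2 CPM in Smarcb1-RE, with log2 fold changes of 1.03 (adjusted p = 2.18e-05) and 1.80 (adjusted p = 5.01e-08). Pax9, a developmental transcription factor, rose by 1.02 (adjusted p = 1.52e-05) and 1.34 (adjusted p = 6.36e-07). Cdkn2a, the cell cycle inhibitor that Bmi1 and Cbx7 are known to repress, was at 130, 113 and 111 CPM in control, at 157, 169 and 165 CPM in SAHA and at 95.2, 90.1 and 97.1 CPM in Smarcb1-RE. Its log2 fold change was 0.47 in SAHA (adjusted p = 1.27e-05) and -0.33 in Smarcb1-RE (adjusted p = 0.000221). The neighbouring Cdkn2b rose by 1.23 in SAHA (standard error 0.25, adjusted p = 0.000751). Cdkn2b also rose by 0.72 in Smarcb1-RE (standard error 0.26, adjusted p = 0.0213), where Cdkn2a fell.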
